A study of Homo sapiens with 24 samples.

Results

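The effect of ISRIB in bortezomib-treated hepatoma cells was examined in 8 of the 24 RNA-Seq libraries of the series, namely the 4 libraries of HepG2 cells given 50 nM bortezomib together with 50 nM ISRIB and the 4 libraries of cells given 50 nM bortezomib alone, all chosen by their treatment labels and collected after 10 h. The other 16 libraries hold 4 each of vehicle (DMSO), ISRIB alone (50 nM), nelfinavir alone (20 µM) and bortezomib with nelfinavir, and they served to estimate the spread between replicates. HepG2 is an established human hepatoma cell line, and the study describes the replicates of a group as biological replicates. Reads were made with a 3′-end method, so that a count stands for a read from a transcript end and is not scaled by gene length. As bulk RNA was measured, fewer cells expressing a gene and less RNA per cell cannot be told apart.

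Bortezomib blocks the proteasome, the complex that degrades ubiquitin-tagged proteins, and cells then accumulate misfolded proteins. Stress kinases such as PERK respond by phosphorylating the translation initiation factor eIF2α, which inhibits its exchange factor eIF2B, lowers general protein synthesis and raises the synthesis of the transcription factor ATF4. ATF4 is known to induce genes of amino acid synthesis and uptake, tRNA synthetases and stress regulators, often through the C/EBP–ATF composite element. ISRIB stabilizes eIF2B and makes it less sensitive to phosphorylated eIF2α. The unfolded protein response of the endoplasmic reticulum (ER) has 2 further branches, IRE1 with XBP1 and ATF6, which induce ER chaperones and degradation factors through the ER stress element and related sites. The comparison asks how the transcriptome under proteasome inhibition differs when signalling from eIF2α is relieved.

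The hepatocyte marker *ALB*, which encodes albumin, was high in both groups. It was at 2638 to 3070 CPM with bortezomib and at 2188 to 3348 CPM with ISRIB added. CPM is the count normalized to the library size after TMM scaling. Against DMSO, bortezomib alone lowered 11 of 22 genes for proteins secreted by hepatocytes and raised 4. It lowered all 11 liver transcription factors tested, where 25.8% of all genes tested were lower. Of 14 markers of blood, endothelial, stromal and glial cells, only 4 had enough counts to be tested, and *PTPRC*, *PECAM1*, *VWF*, *CDH5*, *COL1A2*, *DCN* and *LUM* have no entry in the table. Their summed level was 272 to 365 CPM with bortezomib and 318 to 422 CPM with ISRIB added, most of it from *LYZ* and *CD74*. Total counts were 5380478 to 5995495 per library with bortezomib and 5154533 to 5886463 with ISRIB added, a difference that did not pass (exact permutation test, two-sided, p = 0.629, n = 4 against 4, smallest possible p = 0.0286). Mitochondrially encoded genes took 33.8% ± 1.20 (SD, n = 4) of counts with bortezomib and 36.1% ± 3.13 (SD, n = 4) with ISRIB added (exact permutation p = 0.286). The last group was the less uniform, with 32.6% in replicate 3 and 40.2% in replicate 4, and the counts of these 2 libraries differed more from each other (chi-square per degree of freedom 22.03) than those of any other replicate pair of either group (3.29 to 12.4). Without both, adjusted p rose past 0.05 for *CEBPB* (0.140), *FAF2* (0.0816), *NDRG1* (0.237), *GOT1* (0.128) and *LYZ* (0.102), and for *ERN1*, *SLC38A2* and *TARS* as given beside them.

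ISRIB changed the level of 1553 of the 12685 genes tested (12.2%; edgeR quasi-likelihood test, Benjamini–Hochberg adjusted p under 0.05). Of these, 876 genes (6.91%) were higher and 677 (5.34%) were lower than with bortezomib alone, with 186 higher and 87 lower by more than 2-fold. A model of the 8 libraries alone called 510 genes higher and 357 lower, and 857 of the 1553 calls were among them. Both groups of 4 were fully separated, with no shared range, for 1584 genes (12.5%), among them 631 of the genes called higher and 503 of those called lower. The balance of directions depended on scaling, since with library totals alone 650 genes were higher and 955 lower, so that the share of higher calls went from 56.4% to 40.5%. Without replicates 3 and 4 of bortezomib + ISRIB, 591 genes were higher and 421 lower, and with mitochondrially encoded genes removed 838 were higher and 723 lower. In cells without bortezomib, ISRIB against DMSO gave 0 called genes by the same edgeR test, with 703 at an unadjusted p under 0.05. A test of whether the effect of ISRIB differed with and without bortezomib (interaction term of the same model) called 372 genes with a more positive change (2.93%) and 240 with a more negative change (1.89%) in the presence of bortezomib, the latter 415 by DESeq2.

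**Figure D1:**
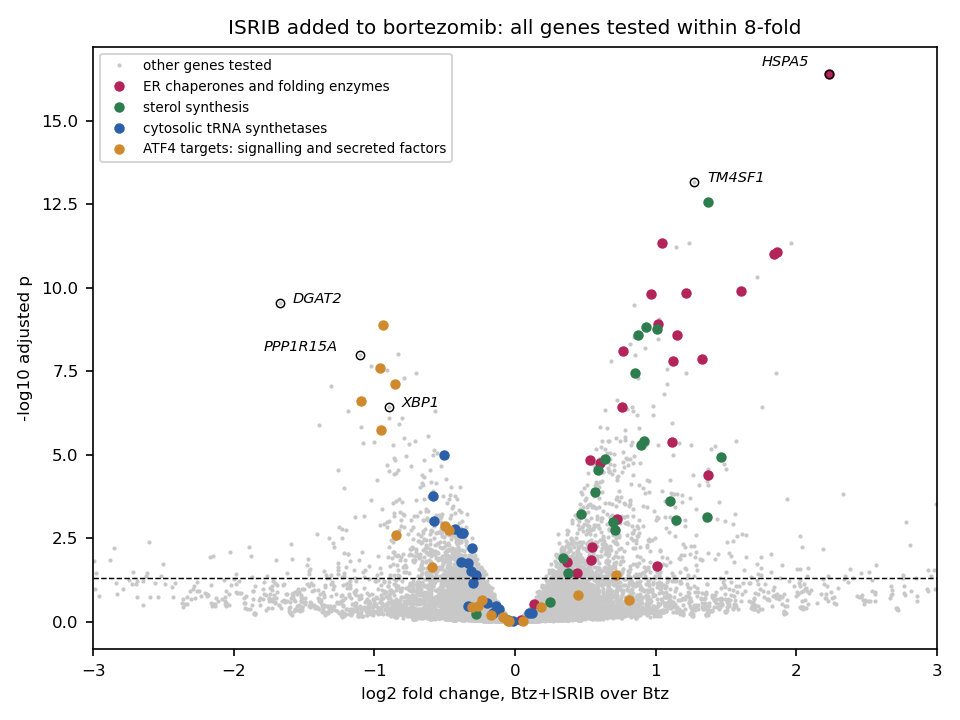
Each point is a gene tested, with the log2 fold change of bortezomib + ISRIB over bortezomib on the horizontal axis and −log10 of the adjusted p on the vertical axis; the dashed line marks an adjusted p of 0.05, colours mark 4 gene lists and open circles the named genes. All ER chaperones and 20 of 22 sterol synthesis genes lie to the right of 0, reaching 2.23 for *HSPA5*, while tRNA synthetases and ATF4 signalling targets lie mostly to the left; 123 genes outside ±3 log2 units, 37 of them called, are not drawn.

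The promoters of responding genes were searched for elements through which these pathways are known to act, and the sequences of 5 such promoters are shown because each carries a match to the element of its gene group in a short, readable form. Each stretch is 300 bases around the RefSeq transcription start (GRCh38.p14), on the strand of the gene, in lower case with the matches in capitals. In the promoters of *HSPA5* (chr9:125241294-125241593, minus strand), *HSP90B1* (chr12:103930160-103930459, plus strand) and *CRELD2* (chr22:49918384-49918683, plus strand), 3 genes of the ER chaperone and folding list that rose, capitals mark the ER stress element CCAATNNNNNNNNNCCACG on either strand. In those of *ATF3* (chr1:212565157-212565456, plus strand) and *TARS* (listed as *TARS1* in RefSeq; chr5:33440715-33441014, plus strand), 2 ATF4 targets that fell, capitals mark the C/EBP–ATF composite TGATGNAA on either strand.
HSPA5: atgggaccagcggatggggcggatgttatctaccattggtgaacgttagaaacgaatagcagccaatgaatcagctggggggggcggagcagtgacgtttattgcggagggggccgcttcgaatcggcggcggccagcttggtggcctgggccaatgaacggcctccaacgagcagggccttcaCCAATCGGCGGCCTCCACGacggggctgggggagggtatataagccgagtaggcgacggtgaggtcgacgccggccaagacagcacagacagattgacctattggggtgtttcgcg
HSP90B1: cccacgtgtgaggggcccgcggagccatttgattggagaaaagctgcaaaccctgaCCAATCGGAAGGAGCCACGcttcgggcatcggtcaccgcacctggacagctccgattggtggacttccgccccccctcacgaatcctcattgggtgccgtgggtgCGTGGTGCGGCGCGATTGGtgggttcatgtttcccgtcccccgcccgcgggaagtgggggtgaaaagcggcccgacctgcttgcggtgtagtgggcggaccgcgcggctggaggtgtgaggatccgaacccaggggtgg
CRELD2: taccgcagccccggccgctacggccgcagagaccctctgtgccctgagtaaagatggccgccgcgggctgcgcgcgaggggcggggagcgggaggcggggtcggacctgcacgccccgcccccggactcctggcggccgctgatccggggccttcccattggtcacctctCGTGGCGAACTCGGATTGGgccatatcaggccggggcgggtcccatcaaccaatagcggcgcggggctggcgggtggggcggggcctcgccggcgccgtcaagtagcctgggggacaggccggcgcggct
ATF3: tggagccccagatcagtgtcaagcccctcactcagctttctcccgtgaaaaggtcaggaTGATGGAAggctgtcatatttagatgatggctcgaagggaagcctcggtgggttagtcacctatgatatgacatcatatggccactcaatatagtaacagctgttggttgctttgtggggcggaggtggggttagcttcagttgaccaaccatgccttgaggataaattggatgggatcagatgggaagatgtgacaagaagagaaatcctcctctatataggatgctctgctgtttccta
TARS: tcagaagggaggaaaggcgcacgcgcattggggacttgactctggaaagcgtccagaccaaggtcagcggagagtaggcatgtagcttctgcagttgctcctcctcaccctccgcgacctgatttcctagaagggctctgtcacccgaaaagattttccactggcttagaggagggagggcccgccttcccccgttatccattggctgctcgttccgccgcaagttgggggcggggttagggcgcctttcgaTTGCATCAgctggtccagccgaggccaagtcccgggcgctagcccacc
Counting the start site as position 0, the element lies at −66 to −48 in *HSPA5* and at −80 to −62 in *CRELD2*, and *HSP90B1* holds one at −194 to −176 and another at −89 to −71. The composite element lies at −191 to −184 in *ATF3* and just past the start, at 2 to 9, in *TARS*.

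Across all genes tested, 9816 of 12685 matched a RefSeq promoter. The C/EBP–ATF composite was found in 21 of 535 promoters of genes that fell (3.925%, Wilson 95% interval 2.58 to 5.93%), in 1.456% of those of genes that rose and in 1.571% of those of genes not called. It was in 1003 of all 27305 promoters of the reference table (3.673%), a share close to that in the genes that fell. Among cytosolic tRNA synthetases, 6 of 16 promoters held it (37.5%). The ER stress element was found in 7 of 687 promoters of genes that rose (1.019%, interval 0.494 to 2.09%), in 5 of 139 of those that rose by more than 2-fold (3.597%), in 1 of 535 that fell and in 5 of 8594 not called (0.05818%), against 0.08057% of all promoters. Of 23 promoters of ER chaperones and folding enzymes, 6 held it (26.09%). The XBP1 element TGACGTGG was in 17 promoters of genes that rose (2.475%) and 4 of genes that fell (0.7477%), against 0.7947% of all promoters. Among genes changed by more than 2-fold, however, the shares were 1.439% (2 of 139) and 1.471% (1 of 68). The sterol regulatory element TCACNCCAC was in 1.601% of all that rose and 1.495% of all that fell, against 1.146% of all promoters. For changes of more than 2-fold its shares were 2.158% (3 of 139) and 2.941% (2 of 68). Of 15 promoters of sterol synthesis genes, 1 held it (6.667%, interval 1.19 to 29.8%). The ER stress element was also found in *CANX*, which was not called, and *XBP1*, which fell, and the C/EBP–ATF composite in *HERPUD1*, which rose, and *ASNS*, which was not called. Both strands were searched, no match of one motif overlapped a match of another, and a match is a description of the sequence, not evidence of binding.

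ER chaperones and folding enzymes formed the most uniform group. Of 25 members tested, 23 rose and 0 fell, with a median log2 fold change of 1.01, against 0.0065 over all genes tested, and 21 rose with libraries that did not overlap. Counts of list members here and below are to be read against the 6.91% of all genes tested that were higher and the 5.34% that were lower. Of all 12685 genes tested, 631 were called higher and 503 called lower with libraries that did not overlap. *HSPA5* (chr9:127997132-128003661, GRCh37, minus strand) encodes BiP, the main ER Hsp70 chaperone, which also holds the stress sensors inactive. Its level was 2278, 2148, 1905 and 2204 CPM with bortezomib, and 9768, 10205, 11309 and 8802 CPM with ISRIB added. Every library with ISRIB was thus above every library without it, and the log2 fold change was 2.23 ± 0.10 (standard error, SE; adjusted p = 4.13e-17). In DMSO the mean was 1459 CPM and with ISRIB alone 1421 CPM.

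Other lumenal factors followed, several of which bortezomib alone had left near or below their DMSO level. *SDF2L1*, a component of the BiP complex, was at 61.4, 56.0, 52.2 and 55.5 CPM with bortezomib and at 214, 232, 235 and 138 CPM with ISRIB added (log2 fold change 1.87 ± 0.14, adjusted p = 8.46e-12). *CRELD2*, a secreted ER stress factor, was at 35.5, 31.0, 26.8 and 36.7 CPM and at 90.6, 88.8, 120.2 and 97.5 CPM (1.61 ± 0.13, adjusted p = 1.30e-10). The groups did not overlap for either gene, and the DMSO means were 68.8 CPM for *SDF2L1* and 58.1 CPM for *CRELD2*. *MANF*, a secreted protein retained by the ER and released under stress, rose by 1.84 ± 0.14 on the log2 scale, from 172 to 215 CPM across bortezomib libraries to 522 to 776 CPM. *HSP90B1*, the ER Hsp90 protein GRP94, rose by 1.22 ± 0.10, and *DNAJB11*, a J-domain partner of BiP, by 1.05 ± 0.07. The protein disulfide isomerase genes *PDIA4* (1.33 ± 0.14) and *PDIA6* (0.77 ± 0.08) and the lectin chaperone gene *CALR* (0.96 ± 0.08) rose as well. *CANX*, which encodes the membrane-bound lectin chaperone calnexin, and *SIL1*, an exchange factor for BiP, did not pass the test (0.13 ± 0.08 and 0.04 ± 0.15, adjusted p = 0.296 and 0.896).

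Genes of ER-associated degradation, which returns misfolded proteins to the cytosol for degradation, rose in part. Of 22 members tested, 11 rose and 2 fell, with a median log2 fold change of 0.34, where 6.91% of all genes tested rose and 5.34% fell. *SEL1L*, the scaffold of the HRD1 ubiquitin ligase, was at 70.8, 84.6, 74.3 and 75.2 CPM with bortezomib and at 188, 179.9, 181.5 and 170.1 CPM with ISRIB added (1.24 ± 0.09, adjusted p = 4.61e-12), without overlap. *SYVN1*, which encodes HRD1 itself, rose by 0.89 ± 0.14 and *DERL2*, a channel component, by 0.85 ± 0.12. *HERPUD1*, an organizer of the ligase complex, was at 76.3 to 84.7 CPM and at 315, 315, 175 and 336 CPM (1.86 ± 0.20, adjusted p = 3.52e-08), so that the lowest library with ISRIB was still above the bortezomib range. *EDEM1*, a mannosidase-like factor that selects glycoproteins for degradation, was at 10.9, 9.50, 10.3 and 12.5 CPM and at 46.8, 34.1, 18.5 and 67.1 CPM (1.94 ± 0.35, adjusted p = 0.000215). Replicate 3 was the lowest of the ISRIB libraries for both genes. The 2 members that fell, *FAF2* and *NPLOC4*, encode partners of the segregase p97. Both changed by −0.32 ± 0.09, and without replicate 4 of bortezomib + ISRIB neither passed the test (adjusted p = 0.0543 and 0.0843), nor did *NPLOC4* without replicate 2 of bortezomib (adjusted p = 0.0662).

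The entry and exit routes of the ER followed with smaller changes. In the list of translocon, signal peptidase and oligosaccharyltransferase genes, which move nascent proteins into the ER, cleave their signal peptides and add glycans, 13 of 33 members rose and 0 fell (median 0.28). *SSR1*, encoding a translocon-associated protein, was at 211 to 244 CPM with bortezomib and 388 to 416 CPM with ISRIB added (0.85 ± 0.07, adjusted p = 3.28e-10), and *SPCS3*, a signal peptidase subunit, rose by 0.92 ± 0.09. Of 34 genes for COPII and COPI coats and cargo receptors, which carry proteins between ER and Golgi, 14 rose, 0 fell and all 34 had a positive log2 fold change (median 0.30). The largest were *TMED7*, a cargo receptor (1.37 ± 0.21), *SEC24D*, a cargo-binding COPII subunit (0.94 ± 0.15), and *KDELR3*, a receptor that retrieves ER residents (0.94 ± 0.18). This count was 9 with library totals alone and 9 without replicate 3 of bortezomib.

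Genes with the smallest p-values outside these lists included *TM4SF1*, *NUCB2*, *TMEM50B* and *DEFB1*, all higher. *TM4SF1*, a tetraspanin-like membrane protein, was at 462, 449.7, 451 and 525 CPM with bortezomib and at 1098, 1176, 1152 and 1149.8 CPM with ISRIB added (1.28 ± 0.08, adjusted p = 6.77e-14). *DEFB1*, which encodes an antimicrobial defensin, was at 25.02, 17.5, 28.9 and 14.5 CPM and at 82.1, 85.0, 84.4 and 83.7 CPM (1.97 ± 0.14, adjusted p = 4.61e-12). Bortezomib alone had lowered *DEFB1* from a DMSO mean of 48.5 CPM, and the level with ISRIB added exceeded that mean in all 4 libraries. *NUCB2*, a calcium-binding secretory protein, went from 97.3 to 119 CPM to a range of 231 to 242 CPM (1.14 ± 0.08). *TMEM50B*, an ER and Golgi membrane protein, rose by 1.72 ± 0.14, and its 3′ end overlaps *IFNGR2* on the other strand. *S100A1*, a calcium-binding protein, had the largest log2 fold change by the naming rule (2.33 ± 0.41, adjusted p = 0.000151) at levels of 0.216 to 3.64 CPM and 4.20 to 15.7 CPM.

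The sensors and transcription factors of the unfolded protein response did not move in one direction. Of 13 tested, 2 rose and 3 fell, where 6.91% of all genes tested rose and 5.34% fell. *EIF2AK3*, which encodes PERK, was at 28.9, 37.4, 31.9 and 30.5 CPM with bortezomib and at 59.4, 86.1, 60.4 and 54.8 CPM with ISRIB added (1.02 ± 0.14, adjusted p = 5.30e-06). *CREB3L2*, an ER-anchored transcription factor, rose by 0.87 ± 0.11 from 39.3 to 55.5 CPM to 78.1 to 97.8 CPM, and its DMSO mean was 119.8 CPM. *XBP1*, the target of IRE1 splicing, was at 100.3, 93.9, 91.7 and 89.9 CPM and at 57.0, 39.0, 52.2 and 54.3 CPM (−0.89 ± 0.11, adjusted p = 3.73e-07), without overlap. A count per gene does not separate spliced from unspliced *XBP1* mRNA. *ATF6* fell from 89.9 to 106 CPM to 64.6 to 72.6 CPM (−0.52 ± 0.12, adjusted p = 0.00281), while bortezomib alone had raised it by 1.60 on the log2 scale over DMSO. *ERN1*, which encodes IRE1, was at 28.9, 30.3, 29.1 and 41.7 CPM and at 22.7, 27.9, 14.9 and 15.8 CPM (−0.67 ± 0.20, adjusted p = 0.0203). The call of *ERN1* was lost without replicate 3 (adjusted p = 0.0655) or replicate 4 (0.0681) of bortezomib + ISRIB, without both (0.323), and without replicate 4 of bortezomib (0.0875). Of 17 genes tested for the eIF2 pathway itself, 1 rose and 2 fell, to be read against the same shares of all genes. The gene that rose was *EIF2AK3*, and those that fell were *PPP1R15A* and *EIF2S2* (−0.46 ± 0.08), the gene for the eIF2β subunit.

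Targets of ATF4 and tRNA synthetases together had 69 members tested, of which 27 fell and 3 rose, with a median of −0.28. These lists include genes that the study names, so their direction is not independent evidence. Among stress regulators and secreted factors, 9 of 21 fell and 1 rose. *DDIT4*, an inhibitor of mTORC1, was at 226, 197, 216 and 230 CPM with bortezomib and at 120.0, 108, 109 and 115 CPM with ISRIB added (−0.94 ± 0.09, adjusted p = 1.32e-09). *SESN2*, a leucine-sensing stress protein, was at 359, 374, 327 and 362 CPM and at 166, 160.0, 215 and 123 CPM (−1.10 ± 0.13, adjusted p = 2.44e-07). The levels with ISRIB added stayed well above the DMSO means of 19.7 CPM for *DDIT4* and 29.9 CPM for *SESN2*. *ATF3*, a repressor and activator induced by ATF4, was at 62.1 to 76.4 CPM and at 32.1 to 40.7 CPM (−0.95 ± 0.13), with a DMSO mean of 1.65 CPM. *STC2*, a secreted glycoprotein (−0.96 ± 0.10), and *INHBE*, an inhibin subunit made by liver cells (−0.86 ± 0.10), fell without overlap. *NDRG1* was the member that rose (0.72 ± 0.23, adjusted p = 0.0388), and this call was lost without any 1 of 5 libraries, namely replicates 1 and 4 of bortezomib + ISRIB and replicates 1, 3 and 4 of bortezomib (adjusted p = 0.0837, 0.153, 0.121, 0.116 and 0.0862).

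Other known targets did not pass the test. *ATF4* mRNA was at 556, 600, 558 and 697 CPM with bortezomib and at 530, 565, 646 and 449 CPM with ISRIB added (−0.14 ± 0.12, adjusted p = 0.478), with overlapping groups. *DDIT3*, which encodes CHOP, was at 69.6 to 74.1 CPM and at 58.6 to 78.3 CPM (−0.08 ± 0.12, adjusted p = 0.705), and its 3′ end overlaps *MARS* on the other strand. *ASNS*, the asparagine synthetase gene, was at 129 to 168 CPM and at 119 to 144 CPM (−0.19 ± 0.11, adjusted p = 0.252). *GDF15*, a stress-induced secreted factor, was at 3582 to 4613 CPM and at 3929 to 5051 CPM (0.19 ± 0.13, adjusted p = 0.360). The reads of *ATF4* may be shared with near-identical pseudogenes. *CHAC1* and *FGF21*, further targets, had 3 and 5 counts over all 24 libraries and were not tested.

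For amino acid synthesis, 4 of 16 genes fell and 0 rose (median −0.25). They were *PCK2*, mitochondrial phosphoenolpyruvate carboxykinase (−0.86 ± 0.13), *PSPH*, the last step of serine synthesis (−0.58 ± 0.10), *SHMT2*, which makes mitochondrial one-carbon units (−0.45 ± 0.09), and *GOT1*, whose call was lost without any 1 of 7 of the 8 libraries (adjusted p = 0.05055 to 0.0951). Of 12 amino acid transporters, 3 fell and 2 rose. *SLC1A4*, a transporter of alanine and serine, was at 148, 150.1, 126 and 175 CPM with bortezomib and at 83.9, 73.1, 77.7 and 84.4 CPM with ISRIB added (−0.91 ± 0.10, adjusted p = 2.91e-08). *SLC3A2*, the heavy chain shared by several exchangers, fell by 0.36 on the log2 scale. *SLC7A6*, a light chain of the same family, moved the other way, from 12.3 to 19.5 CPM to 28.7 to 32.4 CPM (0.88 ± 0.15, adjusted p = 8.24e-05), and *SLC38A2*, which takes up neutral amino acids, was higher by 0.32 ± 0.08 (adjusted p = 0.00451, and 0.0687 without replicates 3 and 4 of bortezomib + ISRIB).

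Cytosolic tRNA synthetases, which charge tRNAs with amino acids, fell in 11 of 20 cases and rose in 0 (median −0.31). Of these, 8 fell with libraries that did not overlap, against 503 of all 12685 genes tested. *GARS*, for glycine, was at 349.7, 346, 328 and 359.8 CPM with bortezomib and at 239, 263, 237 and 238 CPM with ISRIB added (−0.50 ± 0.07, adjusted p = 1.05e-05). *CARS*, for cysteine (−0.59 ± 0.10), *TARS*, for threonine (−0.38 ± 0.08), and *MARS*, for methionine (−0.37 ± 0.08), fell too, although *TARS* did not pass without replicates 3 and 4 of bortezomib + ISRIB (adjusted p = 0.0529). No member called fell by more than 0.59 on the log2 scale, and the count was 7 without replicate 2 of bortezomib and 5 without replicates 3 and 4 of bortezomib + ISRIB. Of 17 mitochondrial tRNA synthetases, 0 were called by edgeR in either direction, with a median of −0.09.

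The 10 genes that the study names for ER stress-induced apoptosis were followed one by one, and 5 fell. *PPP1R15A* (chr19:49375469-49379316, GRCh37, plus strand) encodes GADD34, which directs a phosphatase to eIF2α. It was at 269, 239.5, 249 and 231 CPM with bortezomib and at 116, 119.8, 101 and 123 CPM with ISRIB added (−1.10 ± 0.11, adjusted p = 1.05e-08), against 7.48 CPM in DMSO. *BBC3*, which encodes the BH3-only protein PUMA, was at 72.9, 77.0, 81.3 and 80.0 CPM and at 27.4, 49.6, 57.7 and 42.0 CPM (−0.81 ± 0.17, adjusted p = 0.000923). *TRIB3*, the pseudokinase that binds ATF4, was at 270.1, 276, 255 and 323 CPM and at 198, 215, 208 and 189.8 CPM (−0.47 ± 0.10, adjusted p = 0.00177). The groups did not overlap for these 3 genes, and all stayed above their DMSO means. *CEBPB*, a transcription factor that pairs with ATF4, fell by 0.59 on the log2 scale (adjusted p = 0.0226), with 50.1 CPM in replicate 3 and 82.6 to 88.1 CPM in the other ISRIB libraries, and without that replicate the call was lost (adjusted p = 0.0755).

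*ERN1* is the fifth, and the other 5 did not pass. *PMAIP1*, which encodes NOXA, was at 9.41, 6.59, 6.13 and 14.05 CPM and at 4.68, 4.82, 8.21 and 3.21 CPM (−0.77 ± 0.31, adjusted p = 0.101), and passed without replicate 3 of bortezomib + ISRIB (adjusted p = 0.0272). *BCL2L11*, which encodes BIM, was at 19.03, 12.4, 13.3 and 11.02 CPM and at 19.6, 19.3, 18.1 and 21.2 CPM, a difference in the opposite direction (0.49 ± 0.18, adjusted p = 0.0674) that passed without replicate 1 of bortezomib (adjusted p = 0.0133). The 3′ end of *BCL2L11* overlaps a long noncoding RNA gene on the other strand. *ITPR1*, an ER calcium channel, was at 3.10 to 5.40 CPM and 2.32 to 5.03 CPM. *ATF4* and *DDIT3* are given above.

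Genes of the sterol synthesis list rose almost throughout. Of 22 tested, 19 rose and 0 fell, with a median of 0.78. Of these, 15 rose with libraries that did not overlap, against 631 of all 12685 genes tested. *HMGCS1* (chr5:43287572-43313614, GRCh37, minus strand), which makes HMG-CoA for the mevalonate pathway, was at 186, 228, 200.03 and 226 CPM with bortezomib and at 503, 535, 599.9 and 539 CPM with ISRIB added (1.37 ± 0.09, adjusted p = 2.76e-13). *SQLE*, squalene epoxidase (0.93 ± 0.09), *MSMO1*, a demethylation enzyme (1.01 ± 0.09), and *FDFT1*, squalene synthase (0.88 ± 0.08), rose without overlap. *SREBF2*, the master regulator of the pathway, did not pass the test, nor did *PMVK* and *TM7SF2*. *SCD*, the stearoyl-CoA desaturase gene, rose by 0.64 ± 0.08 as well.

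In the same cells *DGAT2* (chr11:75470557-75512580, GRCh37, plus strand), which makes triglycerides, fell most among genes of the naming rule. It was at 38.7, 35.5, 46.3 and 42.1 CPM with bortezomib and at 11.6, 15.3, 10.3 and 13.8 CPM with ISRIB added (−1.67 ± 0.14, adjusted p = 2.83e-10). Bortezomib alone had already lowered it from a DMSO mean of 87.7 CPM, so that the order was DMSO, bortezomib, bortezomib + ISRIB, with no overlap between these groups. *CLDN1*, a tight junction protein, was at 132 to 136 CPM and 68.6 to 78.3 CPM (−0.83 ± 0.08), near its DMSO mean of 72.3 CPM. *EIF5*, an initiation factor (−0.70 ± 0.08), and *TGOLN2*, a trans-Golgi protein (−0.79 ± 0.09), fell without overlap. *CYP1A1*, a xenobiotic-metabolizing enzyme, fell from 133 to 195 CPM to 48.8 to 88.8 CPM (−1.39 ± 0.18, adjusted p = 1.29e-06). The clock gene *ARNTL* (−1.59 ± 0.38), the ion channel gene *TRPV3* (−1.47 ± 0.40) and the adaptor gene *CARD9* (−1.41 ± 0.32) fell at lower levels. The call of *TRPV3* was lost without replicate 1 (adjusted p = 0.0517) or replicate 2 (0.0541) of bortezomib + ISRIB, and that of *CARD9* in a model of the 8 libraries alone (0.0574).

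Proteasome subunit genes, which bortezomib raises in a feedback response, were lower in part. Of 32 tested, 7 fell and 0 rose, where 5.34% of all genes tested fell. The log2 fold change was negative for 26 of the 32, with a median of −0.20. All 32 were among the genes called higher by bortezomib against DMSO (27.6% of all genes tested were higher and 25.8% lower in that comparison, which shares the bortezomib libraries). *PSMD14*, the deubiquitinase of the lid, was at 402, 423, 377 and 421 CPM with bortezomib and at 275, 277, 276 and 265 CPM with ISRIB added (−0.57 ± 0.07, adjusted p = 5.08e-07). *PSMB5*, the catalytic subunit that bortezomib binds, was at 284 to 306 CPM and 262 to 283 CPM (−0.11 ± 0.08, adjusted p = 0.373). The count of 7 was 3 or 4 without any 1 of 5 libraries (replicates 2 and 4 of bortezomib + ISRIB and replicates 2, 3 and 4 of bortezomib). It was 0 when a change above 1.5-fold was required, an outcome fixed in advance, since no subunit fell by that much (largest decrease −0.57).

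Cytosolic and mitochondrial heat shock proteins, all 27 of them higher with bortezomib than with DMSO, showed a like picture, with 7 lower and 2 higher after ISRIB was added (median −0.16). *DNAJA1*, an Hsp40 co-chaperone, fell by 0.45 on the log2 scale, from 392 to 434 CPM to 274 to 316 CPM. *DNAJB1*, its stress-inducible relative, was at 1311, 1371, 1324 and 1478 CPM and at 1232, 1337, 1455 and 1184 CPM, a difference that did not pass (−0.07 ± 0.08, adjusted p = 0.625). *HSPE1*, the mitochondrial co-chaperonin, rose by 0.52 ± 0.08. *HSPA1A*, the inducible Hsp70, was higher by 0.41 ± 0.11 (adjusted p = 0.0130, and 0.0676 without replicate 4 of bortezomib + ISRIB), while its near-identical copy *HSPA1B*, with which it may share reads, did not pass (0.20 ± 0.10, adjusted p = 0.202). Of 8 genes for the cytosolic chaperonin TRiC, 4 fell and 0 rose, and 0 fell without replicates 3 and 4 of bortezomib + ISRIB.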

How the data were processed

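RNA was sequenced from HepG2 cells in 6 groups of 4 biological replicates. The deposited values are raw counts per gene, which the authors made from 3′-end reads (QuantSeq) trimmed with cutadapt 2.8 and aligned with STAR to GRCh37; neither strand handling nor molecular identifiers are described, so overlapping genes on opposite strands may share counts. Among the named genes searched this holds for the 3′ ends of *DGAT2*, *DNAJB11*, *S100A1*, *ITPR1*, *CALR*, *EIF2S2*, *DUSP1*, *SQSTM1* and *ACTA2*, besides those given in the text. It holds as well for *HSP90B1*, *PDIA6*, *SYVN1*, *KDELR3*, *PCK2*, *SHMT2*, *SLC7A6*, *HSPE1*, *IER3*, *WIPI1* and *LYZ*. *MT2A* has a near-identical copy. Coordinates of genes are GRCh37, and promoter sequences are from RefSeq (GRCh38.p14).

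Genes passing filterByExpr (minimum count 5, total 25) in all 24 libraries, 12685 of 18915, were fitted in edgeR 4.0.16 (R 4.3.3) with TMM factors, one coefficient per group and the quasi-likelihood test, and p-values were adjusted by Benjamini–Hochberg over all genes tested. The SE of a log2 fold change is its size over the square root of the F statistic. Named genes are the 10 per direction with the smallest p and the 5 with the largest change (mean of at least 5 CPM in the higher group) among called genes whose libraries do not overlap, the genes the study names for this comparison, and members of 27 lists. The members and lists were chosen with earlier results of these data known, and no set test was run. Single values per library were compared by exact permutation tests, two-sided.

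Alternatives were other scaling factors (median-of-ratios, upper-quartile, library totals), DESeq2 1.42.0, no filter and the default filter, the 2 groups alone, a replicate block, removal of mitochondrially encoded genes, glmTreat for changes above 1.5-fold and each library left out. The scripts were tested on simulated data. Near-identical 3′ ends (97% identity over 80 bases) were searched with BLAST 2.17.0. Intervals cover counting error only. Nelfinavir libraries entered the model and are not described.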

Additional observations from a re-analysis of the deposited data

Results flagged for a closer look

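In each of the 2 groups, the library values of the genes named by the rule and the library totals, detected genes and mitochondrial share were examined for a single library far from the other 3 (Dixon's test). Of 78 such sets of 4, 4 had one, and chance alone gives about 1 in 20. With bortezomib alone, replicate 4 stood apart for *TM4SF1* (525 CPM, the others 449.7 to 462), for *DNAJB11* (154 CPM, the others 160.2 to 161) and for *ERN1* (41.7 CPM, the others 28.9 to 30.3). With ISRIB added, replicate 3 stood apart for *CEBPB* (50.1 CPM, the others 82.6 to 88.1).

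Among called genes whose libraries did not overlap, 20 were taken by the smallest p-values within each direction. The equal numbers of higher and lower genes are set by this rule. For all 20 genes, the change on adding ISRIB differed with and without bortezomib by the interaction term of the edgeR model. The change with bortezomib minus that without it, on the log2 scale, was 2.27 for *HSPA5*, 2.02 for *MANF*, 1.97 for *DEFB1*, 1.85 for *SDF2L1*, 1.74 for *TMEM50B*, 1.36 for *SEL1L*, 1.24 for *NUCB2*, 1.20 for *HMGCS1*, 1.20 for *DNAJB11* and 1.12 for *TM4SF1*. It was −1.58 for *DGAT2*, −1.19 for *PPP1R15A*, −1.18 for *C6orf48*, −1.05 for *DDIT4*, −0.89 for *STC2*, −0.80 for *INHBE*, −0.79 for *SLC1A4*, −0.77 for *CLDN1*, −0.73 for *TGOLN2* and −0.69 for *EIF5*. The 20 genes were chosen by their p-values in bortezomib-treated cells, which form one side of this difference.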

How the results depend on the processing

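Under 9 other settings, without replicates 3 and 4 of bortezomib + ISRIB (chosen after seeing the data), and without each of the 8 libraries in turn, no call among 137 genes examined reversed, though some genes that were not called changed sign (*ITPR1* from −0.56 to 0.019), and 101 of the 121 called kept their call in all of these. They do not include the test for changes above 1.5-fold, which 19 of 31 called genes of the naming rule passed. The counts moved most with fewer samples or a stricter test. With only the 8 libraries compared, 510 genes were higher and 357 lower, COPII and COPI genes higher were 9 and proteasome genes lower 3. Testing for changes above 1.5-fold (glmTreat) left 59 genes higher and 13 lower, 13 ER chaperones, 3 degradation, 3 translocon, 1 COPII or COPI and 5 sterol genes higher, 3 ATF4 signalling targets lower, and 0 tRNA synthetase and 0 proteasome genes lower. No proteasome gene fell by 1.5-fold (largest decrease −0.57 on the log2 scale), and the largest decrease of a tRNA synthetase (−0.59) was at about that fold. Neither 0 thus bears on how stable the smaller changes are. Library totals alone gave 9 COPII or COPI genes higher, and the DESeq2 test 415 genes lower in the interaction (983 higher and 891 lower for ISRIB added). Without replicates 3 and 4 of bortezomib + ISRIB, 421 genes, 5 tRNA synthetases and 4 proteasome genes were lower. The cause of these shifts, beyond the smaller sample or the fold demanded, was not tested.

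Leaving out each library in turn gave 710 to 844 genes higher and 554 to 678 lower, and 273 to 405 and 163 to 293 in the interaction. Counts of members ranged from 19 to 23 ER chaperones, 9 to 11 degradation, 10 to 14 translocon, 9 to 15 COPII or COPI and 17 to 19 sterol genes higher, and from 8 to 9 ATF4 signalling targets, 7 to 11 tRNA synthetases and 3 to 6 proteasome genes lower. The difference in mitochondrial share ranged from 0.989 to 3.51 percentage points.

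Over all genes, deviations of same-numbered libraries of the 2 groups compared correlated at −0.022 to 0.0136, against −0.042 to 0.0548 for other pairs. A replicate effect confined to some genes would not show in these values. *EDEM1* was lowest in replicate 3 both with ISRIB alone (2.82 CPM) and with bortezomib + ISRIB (18.5 CPM), but not with bortezomib alone or DMSO. Whether same-numbered libraries were handled together is not stated. With a replicate block, 894 genes were higher and 714 lower. In a window of 1000 bases either side of the start (GRCh37), the C/EBP–ATF composite was near 22.35% of genes that fell, the XBP1 element near 6.221% and the sterol regulatory element near 12.67% of genes that rose, against 17.79%, 3.569% and 11.01% of all genes.

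At this depth, 119 of 200 genes changed 2-fold and 64 of 200 changed 1.5-fold were recovered in counts simulated for this comparison (12491 and 12503 genes), so smaller changes can be missed. Only 200 genes were changed there, against 1553 called in the data, which makes the adjusted p harder to pass in the simulation. These shares thus do not measure recovery in the data.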

Other observations

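Further gene lists are given by their counts, to be read against the 6.91% of all genes tested that were higher and the 5.34% that were lower. Of 11 immediate early genes tested, 6 rose and 0 fell (median log2 fold change 0.42). *KLF6*, a zinc finger transcription factor, was at 255, 245, 241 and 210.1 CPM with bortezomib and at 400.1, 382, 403 and 434 CPM with ISRIB added (0.77 ± 0.11, adjusted p = 8.14e-06). *DUSP1*, a phosphatase of stress kinases (0.80 ± 0.18), and *IER3*, an apoptosis regulator (0.78 ± 0.15), rose without overlap. Of 20 p53 target genes, 6 fell and 0 rose, among them *MDM2*, the ubiquitin ligase for p53 (−0.57 ± 0.08), while *CDKN1A*, the cell cycle inhibitor p21, did not pass (0.04 ± 0.12, adjusted p = 0.876). Of 19 NRF2 targets, 5 fell and 1 rose, the latter *AKR1C1*, an aldo-keto reductase (0.60 ± 0.10). Of 13 autophagy genes, *SQSTM1*, the receptor p62 (−0.33 ± 0.09), was one of 3 that fell, and *WIPI1*, which acts in autophagosome formation, rose (0.77 ± 0.14). The metallothionein gene *MT2A* rose from 108 to 154 CPM to 215 to 296 CPM (0.98 ± 0.12, adjusted p = 6.35e-07), and 3 of 6 members of its list rose. Of 20 DNA replication genes, 2 fell and 1 rose, and of 79 ribosomal protein genes 3 fell and 0 rose. Of 13 mitochondrially encoded genes, 0 were called by edgeR in either direction (median 0.19).

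Liver genes were divided. Of 22 genes for proteins secreted by hepatocytes, 5 rose and 2 fell. *TTR*, the thyroxine carrier transthyretin, was at 39.1, 38.0, 43.3 and 50.8 CPM with bortezomib and at 65.9, 76.4, 74.7 and 81.0 CPM with ISRIB added (0.80 ± 0.12, adjusted p = 1.34e-05), below the DMSO mean of 120.5 CPM. *APOH* (0.61 ± 0.09) and *AFP* (0.56 ± 0.13) rose, and *APOB*, the scaffold of very-low-density lipoprotein, fell by 0.52 on the log2 scale. Among 11 liver transcription factors, 3 rose and 2 fell. *FOXA2*, a pioneer factor, rose from 28.5 to 33.5 CPM to 42.7 to 58.8 CPM (0.67 ± 0.11), and the bile acid receptor gene *NR1H4* fell from 14.7 to 24.5 CPM to 10.5 to 11.7 CPM (−0.82 ± 0.16). *HNF4A* was lower (−0.44 ± 0.12, adjusted p = 0.00886), a call lost without replicate 1 of bortezomib + ISRIB (adjusted p = 0.0509). Of the 4 markers of other cell types tested, *ACTA2*, smooth muscle actin, fell from 75.4 to 105 CPM to 47.0 to 51.0 CPM, and *LYZ* was higher (0.57 ± 0.19, adjusted p = 0.0388), a call lost without replicate 1 (adjusted p = 0.0613) or 4 (0.211) of bortezomib + ISRIB or replicate 2 of bortezomib (0.144). The part of such cells in the results was not tested.

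A group noticed after the values were seen, and for which no test is claimed, is that of the host genes of small nucleolar RNAs. *ZFAS1* was at 866, 947, 983 and 1030.0 CPM with bortezomib and at 470.0, 404, 304 and 506 CPM with ISRIB added (−1.18 ± 0.15, adjusted p = 4.79e-07). *C6orf48* (−1.02 ± 0.11), *EPB41L4A-AS1* (−0.90 ± 0.11) and *SNHG8* (−0.81 ± 0.10) were lower as well, which makes 4 of the 8 such genes tested, and bortezomib had raised all 4 over DMSO. Chosen in the same way, 12 of 73 nuclear genes for respiratory chain subunits were higher and 3 lower, for example *COX7B*, at 58.1 to 78.9 CPM with bortezomib and 111 to 120.5 CPM with ISRIB added, against a DMSO mean of 140.1 CPM.

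The largest fitted fold changes belong to genes near the detection limit, since 36 of the 37 called genes beyond 8-fold had means under 3 CPM in both groups. The exception was *MTRNR2L7*, a nuclear copy of a mitochondrial rRNA segment, at 0.582 to 1.90 CPM with bortezomib and at 63.9, 88.2, 75.8 and 0.741 CPM with ISRIB added. Its DMSO libraries ranged from 0.420 to 38.1 CPM.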
